A study of Mus musculus with 205 samples.

Results

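The animals labelled F0 stand for the mice born from embryos that had received the Atp6 base editor, the first generation in which the mitochondrial edit could be read in a whole animal. They were chosen as every ear biopsy labelled F0, which gave 14 of the 205 samples of the series. By their names, 6 were CVBC1.1 animals (a to f) and 8 were CVBC2.1 animals (a to h). Mouse embryos at the 1-cell stage were injected in the cytoplasm with a pair of polyadenylated mRNAs made in vitro, coding for the Atp6 editor monomers L2-C and H2-N, and were implanted into pseudopregnant females. Ear tissue was taken at around 3 weeks of age, and all 14 libraries were read in a single sequencing run. The labels do not say what the name prefix stands for (a litter, a surrogate mother or an injection day), so animals that share a prefix may not be independent, and the p-values below measure only the spread between these animals. Later animals came from the same line, as 6 F1, 5 F2 and 6 F3 mice, and the F1 mice were bred from the F0 female with the highest heteroplasmy. The remaining samples were NIH/3T3 mouse fibroblasts, an established line in which the editors had been screened, with empty-vector controls. Wild-type control mice were part of the study, but no animal here is labelled as such. The labels do not settle whether some of the F0 animals listed at 0 on target served as those controls. All 14 are treated as F0, as labelled, and if some had come from embryos without editor, the counts of animals above 0 and the comparison of the name groups would mean something else.

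Mitochondrial DNA is a small circular genome present in many copies per cell and inherited from the mother, and the share of copies that carry a variant is its heteroplasmy. Atp6 encodes subunit a of ATP synthase, the membrane subunit through which protons pass to turn the ring of c subunits. The editors are DddA-derived cytosine base editors (DdCBEs): a bacterial deaminase that works on double-stranded DNA is split into inactive parts, each part is fused to a TALE array that binds beside the target and to a uracil glycosylase inhibitor, and both must bind together to turn a C:G pair into T:A, with a preference for a C that follows a T. Because vertebrate mitochondria read TGA as tryptophan and TAA as stop, such a change on the strand opposite a TGA codon makes a stop codon.

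The target lay in the single exon of Atp6, which spans chrM:7927-8607 on the reference strand of GRCm38 (681 bases, 227 codons with the stop). It was codon 48, the first of 3 TGA codons of the gene, and the change was G8069A (the reference base, its position in the mtDNA, then the edited base). The 61 bases around it (chrM:8039-8099) are printed because every on-target value refers to the middle base of the codon in capitals. The opposite strand is shown with the edited C and the T before it in capitals, and the edited strand is the reference with the substitution made.
reference strand: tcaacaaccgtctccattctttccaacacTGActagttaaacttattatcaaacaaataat
opposite strand: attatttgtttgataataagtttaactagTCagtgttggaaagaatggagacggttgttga
edited reference strand: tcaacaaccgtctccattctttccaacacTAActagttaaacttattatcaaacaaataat
The target base lay 100 bases beyond the last base of Atp8, whose reading frame overlaps the start of Atp6 by 43 bases, so by the annotation the change lay in Atp6 alone. Within 10 bases of it there were 6 other C:G pairs, of which 1 had a T before its C, on the reference strand 8 bases upstream (offset -8). Over the whole 16299-base mtDNA, 1747 of 5989 C:G pairs (29.2%) had a T before the C.

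The 144 bases from the start codon to the target codon (chrM:7927-8070, reference strand, both codons in capitals) are the part of the gene that is read before the new stop.
start to target: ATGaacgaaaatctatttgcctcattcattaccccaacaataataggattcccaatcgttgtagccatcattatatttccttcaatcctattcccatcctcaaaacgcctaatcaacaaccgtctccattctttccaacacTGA
It held 47 codons before the target, or 20.8% of the amino acid codons of Atp6. The nuclear genome of GRCm38 carries a copy of Atp6, Gm10925 at chr1:24613971-24614651 on the reverse strand, which matched all 681 bases of the mitochondrial gene and has the unedited base at the target. Reads from that copy, if any were present, could not be told apart from unedited mitochondrial reads by sequence within the gene. The libraries were made from long-range PCR amplicons that together cover the full mtDNA. Nuclear DNA would be enriched along with it only where the same primers amplified it. Whether they amplify the copy was not tested, and the share of its reads was not measured.

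**Figure D1:**
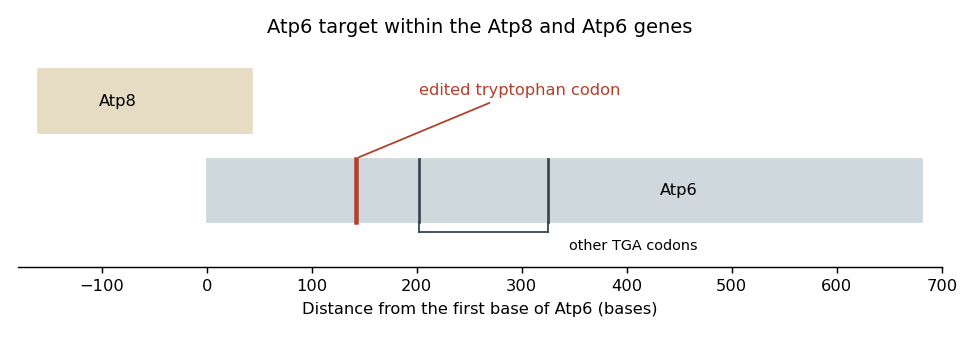
The Atp8 (upper bar) and Atp6 (lower bar) genes are drawn to scale by distance in bases from the first base of Atp6, with the edited tryptophan codon in red and the other TGA codons of Atp6 in dark grey. The edited codon is codon 48, the first of the 3 TGA codons, and lies beyond the stretch of 43 bases shared with Atp8.

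Each animal had 4 values: the on-target percentage (reads that carry the edited base at m.8069 as a share of all reads there, that is, its heteroplasmy), an off-target percentage (C:G-to-T:A changes averaged across mtDNA positions), the same average with a 1% cutoff, and the mean coverage in reads per position. Which positions entered the averages, whether the target was among them and how the cutoff was applied is not given in the sources used here. Coverage of the F0 animals lay between 420 and 1297 reads in 13 animals and reached 6227 reads in CVBC2.1e. The depth at the target base itself was not given and was not worked out from the percentages, so no counting interval was computed. As a scale only, if the depth there equalled the mean coverage, 1 read would weigh between 0.0161% in CVBC2.1e and 0.238% in CVBC1.1e. With a lower depth there, each read would weigh more.

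On-target values above 0 were listed for 6 of the 14 F0 animals, 5 of them above the animal's own off-target average, and the 4 highest were all in animals named CVBC1.1. CVBC1.1e carried 10.2% of m.8069 G-to-A reads. CVBC1.1f carried 2.65%, CVBC1.1c 2.62% and CVBC1.1b 1.27%. CVBC1.1a and CVBC1.1d were listed at 0. CVBC1.1e thus stood well above its namesakes, and its value came from the shallowest library of the 14, at a mean coverage of 420 reads.

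Among the CVBC2.1 animals, CVBC2.1g carried 0.615% and CVBC2.1e 0.0503%. The other 6, CVBC2.1a, b, c, d, f and h, were listed at 0. Both values lay below the lowest CVBC1.1 animal that was above 0. CVBC2.1e was read far more deeply than any other animal. Its 0.0503% was smaller than the weight of 1 read at the mean coverage in each of the other 13 libraries. At its own mean coverage it was just over the weight of 3 reads (0.0482%). With a lower depth at the target it would stand for fewer reads.

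**Figure D2:**
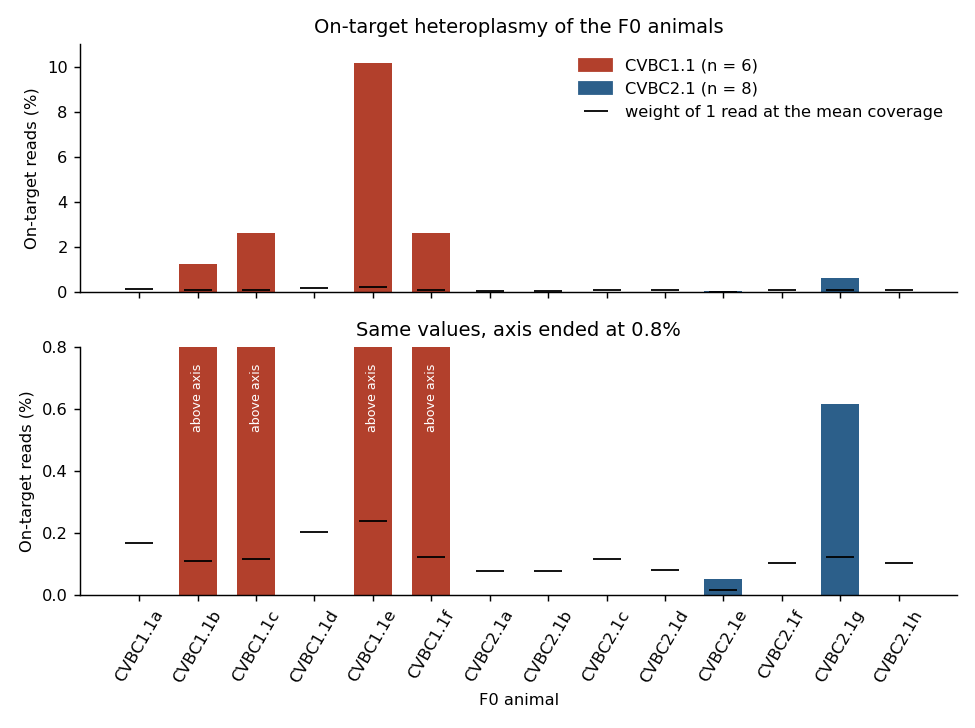
Bars give the on-target percentage of each F0 animal (CVBC1.1 red, CVBC2.1 blue), with the axis up to 11% in the upper panel and ended at 0.8% in the lower one, and black ticks give the weight of 1 read if the depth at the target equalled the animal's mean coverage. CVBC1.1e stands highest at 10.2%, and in the lower panel only CVBC2.1e and CVBC2.1g have bars that end inside the axis.

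Mean heteroplasmy was 2.78 ± 3.80% in CVBC1.1 animals (SD, n = 6) and 0.0831 ± 0.216% in CVBC2.1 animals (SD, n = 8). The difference of 2.70 percentage points had an exact two-sided permutation p of 0.0150 over all 3003 splits (0.0200 adjusted over the 4 measures). Without CVBC1.1e the CVBC1.1 mean was 1.31 ± 1.32% (SD, n = 5), the difference fell to 1.22 percentage points, and the exact p was 0.0350. The SD of the CVBC1.1 animals was larger than their mean.

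The number of animals with any edited read gave less separation than the levels did. On-target values above 0 were found in 4 of 6 CVBC1.1 animals and in 2 of 8 CVBC2.1 animals (Fisher's exact test, two-sided, p = 0.277). With 1% as the limit, the numbers were 4 of 6 CVBC1.1 animals and 0 of 8 CVBC2.1 animals (exact p = 0.0150, and 0.00699 to 0.0350 when each animal was left out). The limit thus decided the call. The 2 animals that moved it, CVBC2.1e and CVBC2.1g, were the deepest library of the 14 and one of the shallower ones, at 6227 and 818 reads.

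A 0 in these animals bounds the heteroplasmy only loosely. At the mean coverage of each library, 3 reads would weigh 0.4997% in CVBC1.1a and 0.610% in CVBC1.1d. In the 6 CVBC2.1 animals at 0 they would weigh 0.231% to 0.349%. With a lower depth at the target all these weights would be larger. The level of CVBC2.1e, 0.0503%, lies below the weights at the mean coverage in all 8 animals listed at 0, so a 0 there does not exclude such a level. By contrast 1.27%, the lowest of the CVBC1.1 values above 0, lies over the weights at the mean coverage in all 8.

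The coverage of the animals above 0 overlapped with that of the animals at 0. Listed without a test, since these sets are defined by the outcome, the 6 animals above 0 had coverage of 420 to 6227 reads with a median of 843 reads, and the 8 at 0 had 492 to 1297 reads with a median of 978 reads. The 4 animals at 1% or more had a median of 842 reads, against 978 reads in the 10 animals under 1%. Over the 14 animals, heteroplasmy and coverage had a Pearson r of -0.22 (permutation p = 0.109, 0.219 adjusted over the 6 relations among the 4 measures) and a Spearman rho of -0.37 (permutation p = 0.187). Within CVBC1.1 r was -0.40 and within CVBC2.1 it was -0.12 (exact permutation p = 0.525 within CVBC1.1 and 0.643 within CVBC2.1). Without CVBC2.1e, r over the 13 others was -0.53 (permutation p = 0.0464), and without both CVBC2.1e and CVBC1.1e, the animals farthest from the median coverage, it was -0.19 (permutation p = 0.557).

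The on-target percentage was above the animal's own off-target average in 5 of the 6 animals above 0. Values at single other positions were not used, so whether some of them also exceeded that average was not tested. The on-target percentage was 97.1 times the animal's off-target average in CVBC1.1e, 25.2 times in CVBC1.1f, 24.9 times in CVBC1.1c and 11.2 times in CVBC1.1b. In CVBC2.1g it was 5.82 times that average. In CVBC2.1e it was 0.487 times the average, so the m.8069 value of this animal was lower than the mean C:G-to-T:A percentage of its own mtDNA.

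Off-target averages were low and close together in all F0 animals, and slightly higher in CVBC1.1 than in CVBC2.1. CVBC1.1a had 0.116%, CVBC1.1b 0.113%, CVBC1.1c, e and f 0.105% each, and CVBC1.1d 0.1001%. CVBC2.1g had 0.106%, CVBC2.1e 0.103%, CVBC2.1h 0.102%, CVBC2.1c 0.0987%, CVBC2.1b 0.0980%, CVBC2.1f 0.0979%, CVBC2.1d 0.0957% and CVBC2.1a 0.0909%. The 2 highest values, in CVBC1.1a and b, lay above every CVBC2.1 animal, 5 CVBC2.1 animals lay below every CVBC1.1 animal, and the rest overlapped. The highest average of all belonged to CVBC1.1a, an animal listed at 0 on target.

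The mean off-target percentage was 0.107 ± 0.00606% in CVBC1.1 animals (SD, n = 6) and 0.0990 ± 0.00463% in CVBC2.1 animals (SD, n = 8). The difference of the means was 0.00835 percentage points, a ratio of 1.08 (exact two-sided permutation p = 0.0107, 0.0200 adjusted over the 4 measures). It kept its side of the threshold when each animal was left out (exact p = 0.00389 to 0.0264). If the target were among the averaged positions, its share would be at most 0.00170 percentage points, in CVBC1.1e, and with that share taken off every animal the difference was 0.00790 percentage points (exact p = 0.0150).

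The average with the 1% cutoff behaved alike. CVBC1.1e had the highest value, 0.0514%, followed by CVBC1.1a with 0.0492%, CVBC1.1b with 0.0488% and CVBC1.1c with 0.0480%, all above every CVBC2.1 animal. CVBC1.1f had 0.0442% and CVBC1.1d 0.0439%, inside the range of the CVBC2.1 animals. Those ran through 0.0411% (CVBC2.1a), 0.0412% (CVBC2.1b and c), 0.0432% (CVBC2.1f), 0.0444% (CVBC2.1h), 0.0445% (CVBC2.1d) and 0.0449% (CVBC2.1e) up to 0.0465% (CVBC2.1g). The mean was 0.0476 ± 0.00297% in CVBC1.1 animals (SD, n = 6) and 0.0434 ± 0.00205% in CVBC2.1 animals (SD, n = 8). The difference was 0.00422 percentage points, a ratio of 1.097 (exact permutation p = 0.0107, 0.0200 adjusted over the 4 measures). The cutoff left 0.417 to 0.491 of the plain average in each animal, with the highest fraction in CVBC1.1e.

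**Figure D3:**
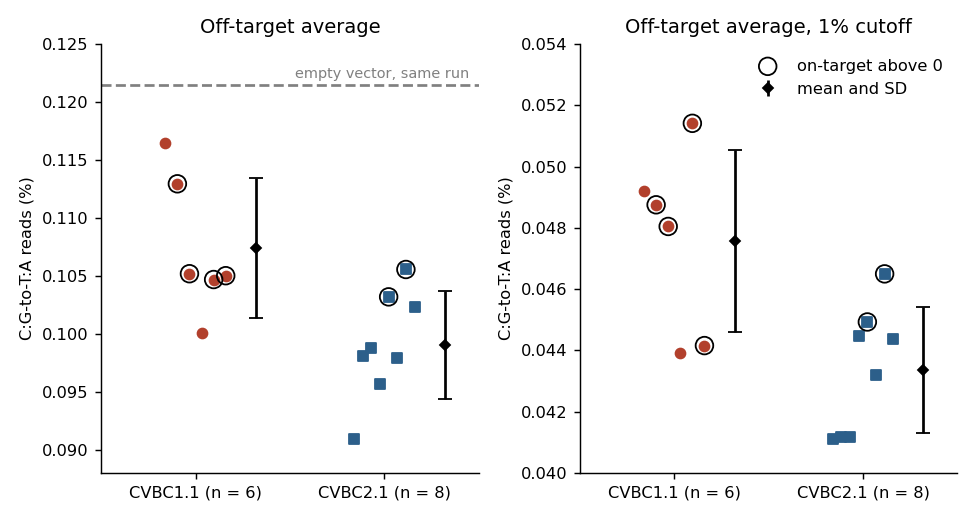
Each point is an F0 animal, with the off-target average in percent on the left and the same average with the 1% cutoff on the right. Circled points had an on-target value above 0, diamonds with bars give the mean and SD of each name, and the dashed line is the empty vector of the same run (0.121%, n = 1), above all 14 animals. The axes do not start at 0.

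Coverage differed along with the names. CVBC1.1 animals had 600 (a), 904 (b), 868 (c), 492 (d), 420 (e) and 816 (f) reads, with a mean of 684 ± 207 reads (SD, n = 6). CVBC2.1 animals had 1279 (a), 1297 (b), 860 (c), 1228 (d), 6227 (e), 980 (f), 818 (g) and 977 (h) reads, with a mean of 1708 ± 1835 reads (SD, n = 8). All but 2 of the CVBC2.1 animals, c and g, lay above every CVBC1.1 animal. The difference of the means, -1025 reads, did not pass the test (exact permutation p = 0.0756), but CVBC2.1e decided its size, and without it the difference was -379 reads with an exact p of 0.00874. Without any other single CVBC2.1 animal the difference passed too (exact p up to 0.0437), without any single CVBC1.1 animal it did not (exact p = 0.194 to 0.297), and by ranks of all 14 animals the exact p was 0.00799. Coverage ranked lower in CVBC1.1 than in CVBC2.1, and its part in the off-target difference was not tested beyond the comparison at similar coverage that follows.

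Between 800 and 1000 reads, a range chosen after the values had been seen, the names overlapped, with CVBC1.1b, c and f against CVBC2.1c, f, g and h. Both CVBC1.1 animals at 0, a and d, fell outside this range, so only CVBC1.1 animals above 0 entered and the heteroplasmy values there are given without a test. Mean coverage there was 863 reads in the 3 CVBC1.1 animals and 909 reads in the 4 CVBC2.1 animals. Heteroplasmy was 2.18 ± 0.786% in the CVBC1.1 animals and 0.154 ± 0.307% in the CVBC2.1 animals (SD). The off-target average was 0.108 ± 0.00453% in the CVBC1.1 animals and 0.101 ± 0.00352% in the CVBC2.1 animals (SD, exact p = 0.114). With the 1% cutoff it was 0.0470 ± 0.00247% in the CVBC1.1 animals and 0.0438 ± 0.00223% in the CVBC2.1 animals (SD, exact p = 0.171). At similar coverage the off-target differences kept their direction and did not pass the test.

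Across all 14 animals, the off-target average and coverage had a Pearson r of -0.08 (permutation p = 0.755, 0.755 adjusted) and a Spearman rho of -0.54 (permutation p = 0.0484, 0.0726 adjusted over the 6 relations). Leaving out CVBC2.1e and CVBC1.1e, the animals farthest from the median coverage, r was -0.62 (permutation p = 0.0297). Within CVBC1.1 r was 0.30 (exact permutation p = 0.518) and rho 0.60 (exact permutation p = 0.242). Within CVBC2.1, which holds CVBC2.1e, r was 0.29 (exact permutation p = 0.498) and rho -0.33 (exact permutation p = 0.428). The pooled rank relation thus kept its sign within CVBC2.1 and not within CVBC1.1, and it passed in neither. For the 1% cutoff and coverage r was -0.14 (permutation p = 0.6246, 0.749 adjusted) and rho -0.43 (permutation p = 0.128), with r of -0.18 within CVBC1.1 and 0.26 within CVBC2.1. The deepest library weighed on both relations, and without CVBC2.1e r with coverage was -0.58 for the plain average (permutation p = 0.0363) and -0.65 for the 1% cutoff (permutation p = 0.0174).

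**Figure D4:**
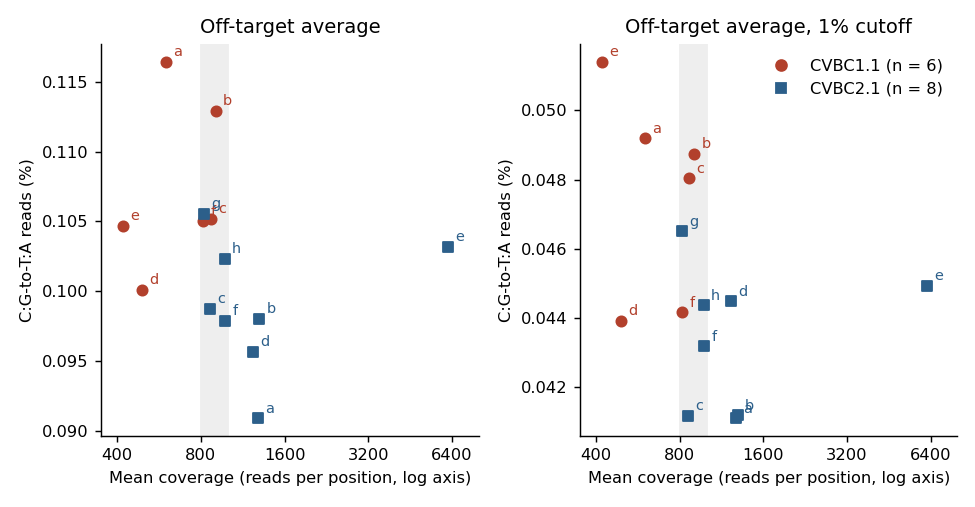
Each point is an F0 animal, marked by the last letter of its name, with the mean coverage on a log axis and the off-target average in percent without (left) and with (right) the 1% cutoff. The grey band spans 800 to 1000 reads, where both names have animals, and CVBC2.1e lies far to the right at 6227 reads.

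Across the 14 animals, those with higher heteroplasmy ranked higher on both off-target averages, and within CVBC1.1 neither relation passed. If the target were among the averaged positions, its own share would enter both averages, and the relations were not recomputed without it. Without that share, the 1% cutoff value of CVBC1.1e would be 0.0497% in place of 0.0514%. For heteroplasmy and the 1% cutoff, r was 0.64 (permutation p = 0.00597, 0.0179 adjusted) and rho 0.61 (permutation p = 0.0233, 0.0497 adjusted). This Pearson relation rested on CVBC1.1e, since without that animal r was 0.41 (permutation p = 0.157). Leaving out CVBC1.1e and CVBC1.1a, the animals farthest from the median of the cutoff value, it was 0.57 (permutation p = 0.0502). Within CVBC1.1 r was 0.58 (exact permutation p = 0.264) and rho 0.32 (exact permutation p = 0.544), and within CVBC2.1 it was 0.65 (exact permutation p = 0.0179), where only CVBC2.1e and g were above 0.

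For heteroplasmy and the plain off-target average, r was 0.21 (permutation p = 0.422, 0.633 adjusted) and rho 0.61 (permutation p = 0.0248, 0.0497 adjusted). Within CVBC1.1 r was -0.28 (exact permutation p = 0.597) and within CVBC2.1 it was 0.60 (exact permutation p = 0.143), so the names gave opposite signs and neither passed. By ranks, rho within CVBC1.1 was -0.29 (exact permutation p = 0.578) and within CVBC2.1 it was 0.76 (exact permutation p = 0.0357), where 6 of the 8 animals were tied at 0. In plain values, the 6 animals above 0 had off-target averages of 0.103% to 0.113%, and the 8 at 0 had 0.0909% to 0.116%. The first range lay inside the second. The 2 off-target measures, which come from the same reads, went together, with r of 0.77 (permutation p = 0.00119, 0.00714 adjusted), though within CVBC1.1 r was 0.50 (exact permutation p = 0.282) and within CVBC2.1 it was 0.72 (exact permutation p = 0.0444).

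The CVBC1.1 animals at 0 on target gave no single pattern. CVBC1.1a had the highest plain off-target average of the 14 animals (0.116%) and the second highest 1% cutoff value (0.0492%). CVBC1.1d had the lowest of both among the CVBC1.1 animals (0.1001% and 0.0439%). Among the 6 CVBC2.1 animals at 0, the plain average lay between 0.0909% and 0.102% and the 1% cutoff value between 0.0411% and 0.0445%. CVBC1.1a lay above both of these ranges, and CVBC1.1d lay inside both.

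The F0 animals were not above the single empty-vector cell sample of their own run. The empty-vector NIH/3T3 sample read beside them (n = 1) had an off-target average of 0.121% at a coverage of 524 reads, and all 14 animals lay below it. The 24 editor pairs of the screen in that run had 0.182% to 0.599%, all above every F0 animal. Among these were the Atp6 pairs 75 and 76, with 85.9% and 92.5% on target and 0.521% and 0.318% off target. Those pairs were expressed from transfected plasmids in a cell line, whereas the mice developed from embryos injected with mRNA. Cells and ear tissue were also lysed and extracted by different procedures, so the comparison is given as values without a test. The paper compared its mice with wild-type animals and described C:G-to-T:A changes as slightly elevated in the F0 female. It described them as purified in later generations and called F1 to F3 virtually free of off-targets. The comparison with wild-type animals could not be repeated here, as no animal is labelled wild type.

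Heteroplasmy was higher in every later animal than in CVBC1.1e, the highest F0 animal. Mean on-target percentages were 1.24 ± 2.74% in F0 (SD, n = 14), 21.7 ± 7.27% in F1 (SD, n = 6), 29.5 ± 4.11% in F2 (SD, n = 5) and 40.1 ± 12.7% in F3 (SD, n = 6). The lowest of the 17 later animals, an F1 mouse, had 10.7%. Mothers were selected for their heteroplasmy, so these levels are set side by side and were not tested.

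The plain off-target average was lower in F0 than in each later generation. It was 0.103 ± 0.00664% in F0 (SD, n = 14), 0.159 ± 0.0111% in F1 (SD, n = 6), 0.180 ± 0.0144% in F2 (SD, n = 5) and 0.183 ± 0.00916% in F3 (SD, n = 6), and the F0 values overlapped with none of them. Differences of F0 minus the later generation were -0.0566 percentage points for F1, -0.0774 for F2 and -0.0802 for F3. The exact permutation p adjusted over the 6 comparisons was 7.74e-05 for F1 and for F3 and 0.000172 for F2. These rest on the smallest p-values the splits can give. The animals of each later generation share a name prefix and a maternal line, so they may not be independent replicates of a generation. The p-values treat each animal as a unit.

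Generation and run cannot be told apart, since F1 was read in a run of its own and F2 and F3 in another. Coverage differed as well, at 420 to 6227 reads in F0 and 4188 to 14980 reads in F1. It was 234 to 406 reads in F2 and 290 to 582 reads in F3, and its part in these differences was not tested. The empty vectors moved with the runs, at 0.121% in the run of F0 (n = 1), a mean of 0.151% in that of F1 (0.140% to 0.170%, n = 3) and a mean of 0.163% in that of F2 and F3 (0.155% to 0.175%, n = 6). After subtraction of the mean of these vectors, F0 animals were on average -0.0188 percentage points from it (-0.0305 to -0.00500), F1 animals 0.00856, F2 animals 0.0174 and F3 animals 0.0203 above it. F0 thus remained lower than each later generation with the run's vectors subtracted, with a difference of -0.0274 percentage points from F1 in place of -0.0566. That correction rests on a single empty-vector library for F0, and on cells, not mice, in every run. The order of the plain averages was not set against the paper's statement on later generations, which rested on wild-type animals.

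With the 1% cutoff the order was not the same, and the F0 animals did not lie below the later ones. As for the plain average, run, coverage and name prefix went along with generation. No empty-vector value with the cutoff was used. The average was 0.0452 ± 0.00321% in F0, 0.0418 ± 0.00164% in F1, 0.0439 ± 0.00813% in F2 and 0.0403 ± 0.00666% in F3 (SD, n as above). F0 was higher than F1 by 0.00340 percentage points (exact permutation p = 0.0247, 0.0371 adjusted) and higher than F3 by 0.00491 (exact permutation p = 0.0375, 0.0450 adjusted). The F1 call was lost without the F1 animal CVBC3.1c (difference of 0.00287, exact p = 0.0679). The F3 call was lost when CVBC1.1a, b, c or e or any F3 animal but CVBC6.1f was left out (exact p between 0.0515 and 0.0953), and without CVBC6.1f, whose value of 0.0534% was the highest of F3, the difference was 0.00754 (exact p = 0.000172). Against F2 the difference of 0.00123 did not pass (exact permutation p = 0.632), and it turned negative without the F2 animal CVBC5.1a or f. The F1 difference came with the CVBC1.1 animals: these alone were 0.00581 percentage points above F1 (exact p = 0.00433), and the CVBC2.1 animals alone 0.00159 (exact p = 0.146).

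**Figure D5:**
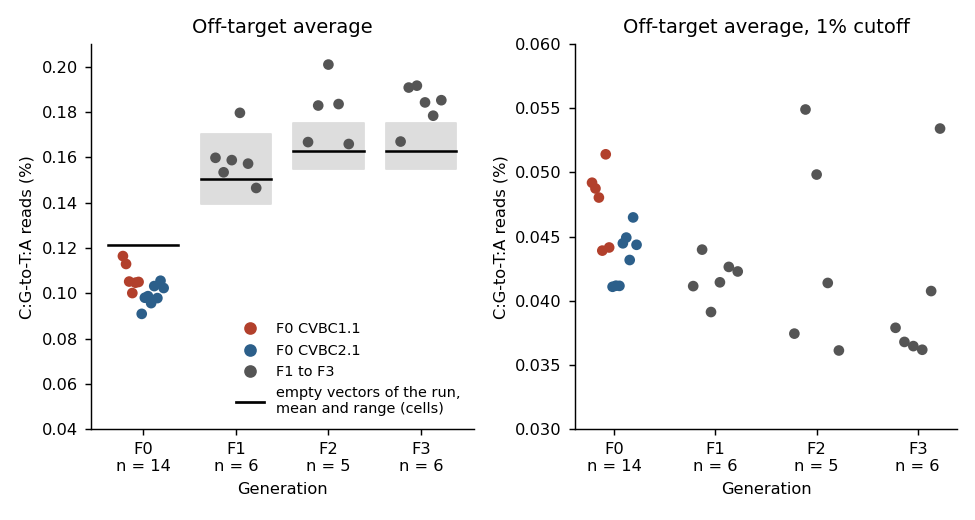
Points are animals of the generations F0 to F3, with the off-target average in percent on the left and that with the 1% cutoff on the right, F0 being split into CVBC1.1 (red) and CVBC2.1 (blue). Black lines and grey boxes on the left give the mean and range of the empty-vector cell samples read in the run of that generation (1 sample for F0), and F0 lies below its line whereas most later animals lie above theirs. The axes do not start at 0.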

How the data were processed

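Libraries of ear DNA were made by the authors from 2 long-range PCR amplicons of mtDNA with Nextera XT and read on a MiSeq. After trimming (Trim Galore, cutadapt), reads were mapped by Bowtie 2 against the mtDNA of GRCm38, piled up in SAMtools at a mapping quality of 30 and called by VarScan. The deposited on-target and off-target percent values were used as the authors gave them, and the coverage signal is their mean depth per sample, unnormalized. No counts were given, so p-values cover the spread between animals only.

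Groups came from the sample names. Means, SDs (n - 1), Fisher's exact test, exact permutation tests (all splits, two-sided), permutation tests of correlations (100000 resamples over 14 animals, exact within names) and Benjamini-Hochberg adjustment were run in python 3.11.15 with numpy 2.4.6, scipy 1.17.1 and pandas 2.3.3, and tested on simulated data. Figures used matplotlib 3.10.9. A p of 0.05 or less was called. All 14 F0 animals were named by rule, other samples as ranges apart from the empty vector and the Atp6 pairs of the same run. Members and comparisons were chosen with earlier results of these data known. Sequences and gene positions came from the RefSeq annotation of GRCm38. In the tables used, 5 entries matched no sample and were left out. Alternatives were medians, ranks, log2 values (pseudocount 0.1 percentage points on target), limits on coverage and leaving out each animal.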

Additional observations from a re-analysis of the deposited data

Results flagged for a closer look

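Among 14 combinations of group and measure, 4 held an animal that stood apart. Its gap to its nearest neighbour took up more of the group's range than Dixon's critical value allows. Chance alone would mark about 1 in 20 groups if the values were normally distributed. On-target values mostly tied at 0, as in CVBC2.1, are not, so the flags are a description only. CVBC1.1e, with 10.2% on target, stood apart from the other CVBC1.1 animals, the next of which had 2.65%. CVBC2.1g, with 0.615% on target, stood apart from CVBC2.1 animals that were nearly all at 0. CVBC2.1e stood apart by its coverage of 6227 reads. In the F3 generation, CVBC6.1f stood apart by its 1% cutoff average of 0.0534%.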

How the results depend on the processing

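Of 76 values under alternatives other than leaving out an animal, 54 kept their direction and their side of the threshold. Differences below are CVBC1.1 minus CVBC2.1, or F0 minus the later generation, in percentage points unless another unit is given. With coverage at or above the median, where 1 CVBC1.1 animal was left against 6 CVBC2.1 animals and the exact p could not go below 0.143, the differences were 1.26 on target, 0.0149 off target and 0.00555 with the 1% cutoff. Between 800 and 1000 reads, a range added after the data had been seen, the off-target differences of 0.00659 (plain) and 0.00318 (1% cutoff) no longer passed. The coverage difference passed by medians (-396 reads), on the log2 scale (-0.996) and by ranks (-5.83 ranks), and leaving out each animal it ran between -1152 and -379 reads, CVBC2.1e giving the smallest, passing without any single CVBC2.1 animal and not without any single CVBC1.1 animal. Counting animals at 1% or more, the shares of animals differed by 66.7 percentage points and passed. The cause of these changes was not tested beyond the smaller numbers of animals.

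Of the relations, off-target average with coverage turned to r = 0.30 within CVBC1.1 and 0.29 within CVBC2.1, the 1% cutoff with coverage to 0.26 within CVBC2.1, and heteroplasmy with the off-target average to -0.28 within CVBC1.1. Heteroplasmy with the 1% cutoff did not pass within CVBC1.1 (0.58) or without CVBC1.1e (0.41), nor did the off-target measures with each other within CVBC1.1 (0.50). Leaving out each animal, r with coverage ran between -0.53 and -0.18 for heteroplasmy, -0.58 and -0.0039 for the plain average and -0.65 and -0.056 for the 1% cutoff, passing only without CVBC2.1e, and r of heteroplasmy with the 1% cutoff ran between 0.41 and 0.75, failing only without CVBC1.1e.

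Against later generations, coverage of 500 or more left 1 F3 animal, and neither -0.0816 (plain) nor 0.00856 (1% cutoff) passed there. No F2 animal was that deep, so no value was had. With the 1% cutoff, the F1 difference did not pass by medians (0.00256) or for CVBC2.1 animals alone (0.00159), the F2 difference turned to -0.000581 for CVBC2.1 animals alone, and the F3 difference did not pass for them (0.00310). Leaving out each animal, these differences ran between 0.00287 and 0.00384 for F1, -0.000725 and 0.00397 for F2 (also turning, to -0.000397, without CVBC5.1a) and 0.00410 and 0.00754 for F3. No paired analysis was possible because the letters of the animals only name them within a prefix, and no animal of one group is matched to an animal of another. Limits on precision are the depth at the target, which was not given, the single empty vector in the run of F0 and the number of animals.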
